A study of Arabidopsis thaliana with 3 samples.

Results

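HCT (AT5G48930) encodes hydroxycinnamoyl-CoA shikimate/quinate hydroxycinnamoyl transferase, an enzyme of lignin monomer synthesis. Its spot was chosen as the one whose single listed gene is HCT, matched by symbol, Entrez identifier and locus code. That gave 1 spot of 9335 with 1 listed gene, and 1 gene of the 9253 measured. RNA came from the basal 4 cm of inflorescence stems of Arabidopsis thaliana, 12 to 17 cm tall, from untreated plants on a cycle of 8 h light and 16 h dark. Each of 3 nst1-1 nst3-1 samples, called lines 1, 2 and 3 here, was hybridised with wild-type RNA on its own two-colour array. The mutant is a double T-DNA line, with NST1 and NST3 disrupted. The proteins of this gene pair are NAC-domain factors that switch on secondary walls in fibres. The series text calls the 3 samples independent lines, yet all bear the same allele names. Per the labels, these plants lack secondary xylem in stem and hypocotyl. The labels do not give plant age, pooling or whether the wild-type RNA was 1 extract or several.

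HCT moves a hydroxycinnamoyl group, chiefly p-coumaroyl, from coenzyme A to shikimate. The ester is then hydroxylated on its ring by CYP98A3, so HCT stands at the entry to the branch that makes guaiacyl and syringyl lignin units. Shikimate is also an intermediate of aromatic amino acid synthesis, which supplies the phenylalanine from which p-coumaroyl-CoA is made. In the inflorescence stem, lignin is laid down mainly in the secondary walls of xylem vessels and of the fibres between and within the vascular bundles. HCT belongs to the BAHD acyltransferases, a large plant family that uses acyl-CoA donors.

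HCT transcript was lower in the mutant stem base than in wild type on every array. The deposited log10 ratio of the HCT spot was -0.771 for line 1, 0.671 for line 2 and -0.729 for line 3. Mutant RNA was labelled with Cy5 for lines 1 and 3 but with Cy3 for line 2, so the opposite sign for line 2 goes with the opposite dye. Read as log10 of Cy5 over Cy3 and turned to mutant over wild type, the log2 ratios were -2.56, -2.23 and -2.42. These are 5.90-fold, 4.69-fold and 5.36-fold lower levels, or 16.9%, 21.3% and 18.7% of wild type. All 3 lines lay far on the same side of 0 and within 0.33 log2 units of each other, a 1.26-fold span.

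The mean log2 ratio of HCT was -2.40 ± 0.17 (SD, n = 3 lines), with a 95% interval of -2.68 to -2.13 from limma. That is 5.29-fold lower, with bounds of 4.37-fold and 6.41-fold. In limma, fitted over all 9253 genes against a ratio of 0, HCT fell with an adjusted p of 0.00917 (Benjamini-Hochberg; unadjusted p = 1.59e-05). In that fit 241 genes were called lower, which is 2.6% of those tested, and 73 were called higher, or 0.789%. An exact two-sided sign-flip permutation test on the 3 HCT values gave p = 0.25, which is the smallest p that 3 arrays allow. In bulk tissue, fewer cells of a type and less RNA per cell cannot be told apart.

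The fold sizes rest on the log10 reading, which comes from a lower bound of exactly -2 in the deposited values. Read as log2, the same spot would be 1.65-fold lower, with the same p. The direction rests on taking Cy5 as the numerator, which is not stated with the values. If the deposited ratios ran the other way, HCT would be higher in the mutant by the same fold. Its places below would then be counted from the highest ratio, with the same ranks and shares. Probes for NST1 and NST3 were not among the spots with a listed gene, so the genotypes were not checked through them here.

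HCT stood in the lower tail of each array, which would be the upper tail with the ratios turned. Among all 22236 spots, with or without a listed gene, 1.43%, 0.540% and 1.44% were lower on the arrays of lines 1, 2 and 3. The shares were smaller among spots with a gene name. Among the 9335 spots with 1 listed gene, 26 were lower than HCT on the array of line 1, which is 0.279% of them. On the array of line 2, 41 spots were lower (0.439%), and on the array of line 3, 24 (0.257%). On each array the nearest spots in rank lay close by. They were at -2.57 and -2.53 around HCT for line 1, at -2.34 and -2.21 for line 2, and at -2.48 and -2.41 for line 3. Ranks of neighbours in that order therefore differ by less than the 0.17 SD of HCT over lines.

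**Figure D1:**
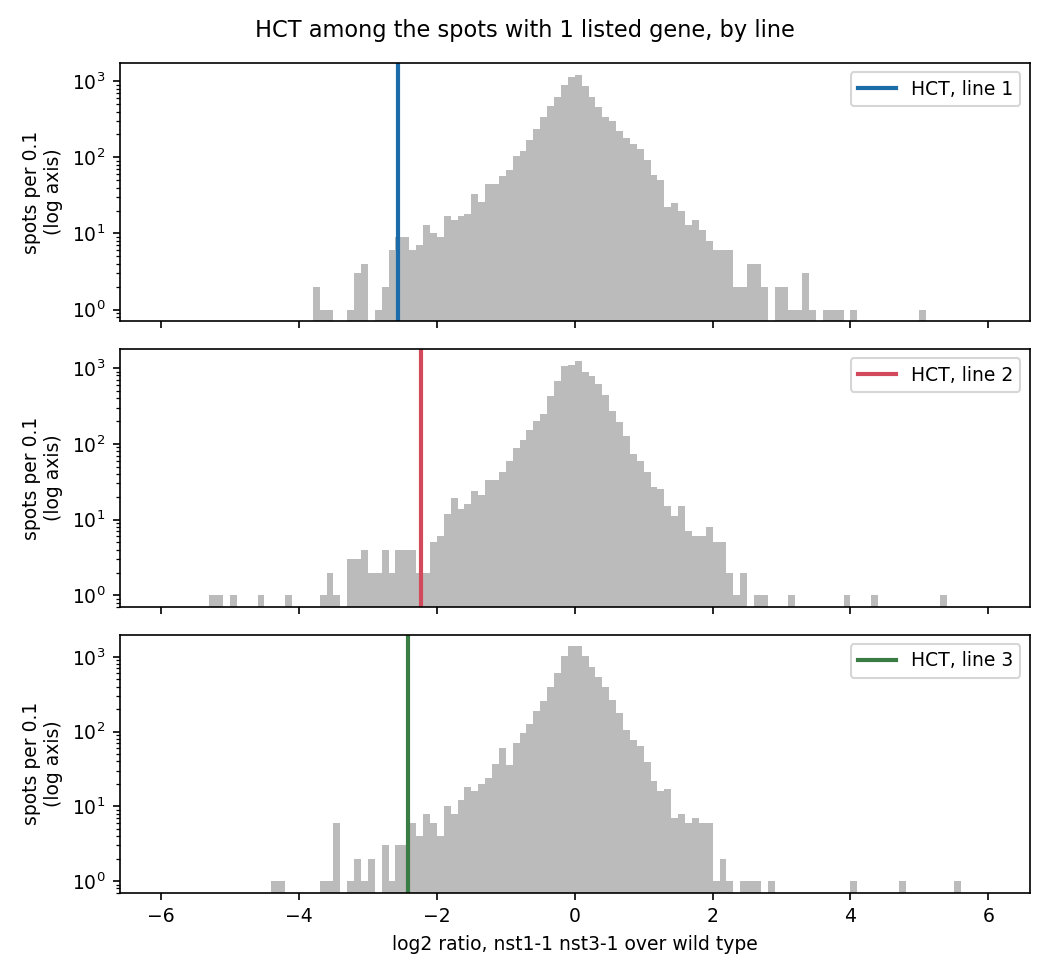
Number of spots with 1 listed gene per 0.1 of log2 ratio, mutant over wild type, on a log axis, with 1 panel per line and a vertical line at HCT. HCT lies at -2.56, -2.23 and -2.42, with 26, 41 and 24 of 9335 spots below it.

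The 3 arrays did not spread equally, so HCT was also set against the width of each. The median absolute deviation of the spots, scaled to match an SD, was 0.361, 0.324 and 0.282 log2 units for lines 1, 2 and 3. HCT lay 7.13, 6.91 and 8.64 such deviations below the array median. Line 3 had the middle log2 ratio but the largest distance in units of its own array. After the arrays were scaled to equal spread, HCT measured -2.27, -2.21 and -2.76, with a limma adjusted p of 0.0198 and the same place among all genes. At this distance from 0, more spots lay below than above on each array, though the counts for line 1 were close. Spots at least as far above 0 as HCT was below it numbered 22, 9 and 7 on the arrays of lines 1, 2 and 3. Those lower than HCT numbered 26, 41 and 24.

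By its mean ratio, HCT was the 24th lowest of 9253 genes (24th highest with the ratios turned), and 0.249% of genes had a lower mean. By unadjusted limma p it was 14th, and 21 genes including HCT had the limma adjusted p of 0.00917. On every array, 30 genes including HCT were lower by at least 4-fold, or 0.324% of those tested. In the other direction 1 gene, DFR (AT5G42800), was at least 4-fold higher on every array, or 0.0108%. Among the 30, the SD over lines ran between 0.099 and 1.12 with a median of 0.225, and HCT had the 10th smallest. Its SD was close to the median of all genes, 0.184, and to the median of the genes called lower, 0.169.

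**Figure D2:**
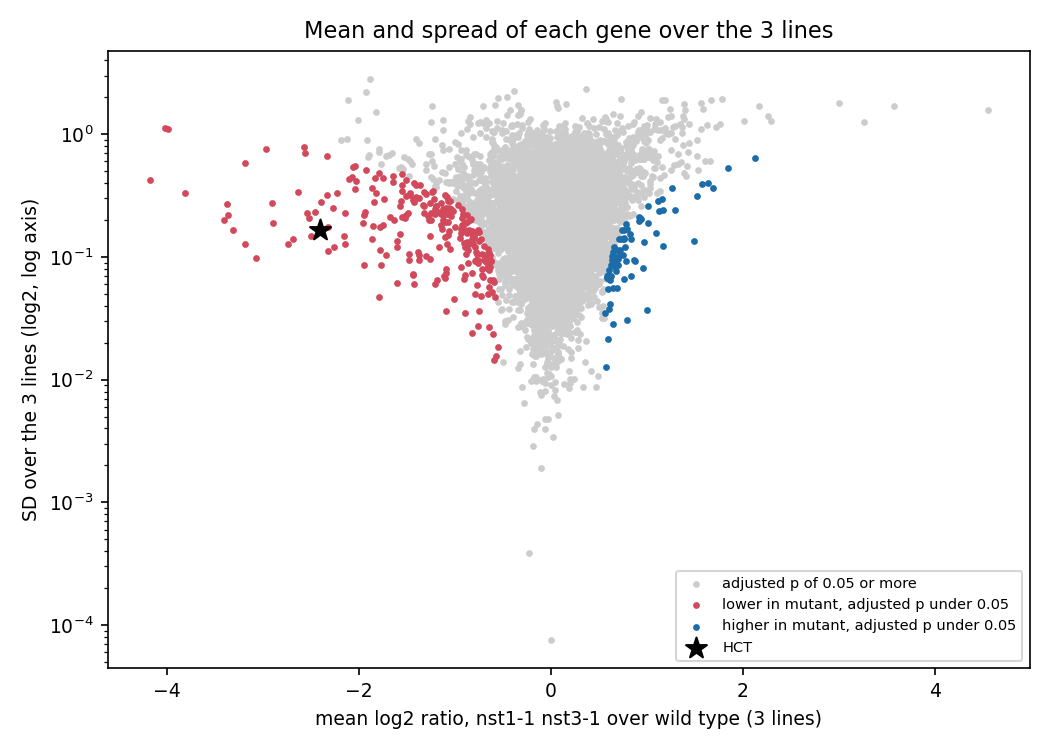
Mean log2 ratio over the 3 lines (x axis) against the SD over lines on a log axis, 1 point per gene, coloured by the limma call; the star is HCT. HCT lies at -2.40 with an SD of 0.17, and the 20 genes with an SD of exactly 0 are not drawn.

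The differences between lines at HCT were of the size seen between the arrays in general. HCT was 0.33 lower on the log2 scale in line 1 than in line 2, where the median absolute difference over all genes was 0.267. It was 0.14 lower in line 1 than in line 3, against a median of 0.231. Between lines 2 and 3 the HCT ratio differed by 0.19, against a median of 0.146. Over the genes at least 4-fold lower on every array, the medians for these pairs were larger, at 0.359, 0.239 and 0.259 in the same order. The mean of the Cy5 arrays of lines 1 and 3 was 0.26 lower than the Cy3 array of line 2. A larger difference of this kind was seen in 34.2% of genes, with a median absolute size of 0.180. With 1 array of the second orientation, a dye effect and a difference between lines cannot be told apart in it.

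Of the 23 genes with a lower mean than HCT, all were called lower by limma. They were lower than HCT on all 3 arrays in 13 cases, on 2 arrays in 5 cases and on 1 array in 5 cases. Those 13 were AT1G19230, AT1G22480, AT3G62730, AT3G56230, AT1G08340, AT1G56720, AT4G26580, AT2G03200, TBL33, AT1G17960, AT3G54040, iqd21 and AT1G72200, with mean log2 ratios between -4.17 and -2.74. TBL33 (AT2G40320), a TRICHOME BIREFRINGENCE-LIKE gene of a family that acetylates wall polysaccharides, measured -3.27, -3.04 and -3.26. The IQ-domain gene iqd21 (AT3G49260) measured -3.11, -2.79 and -2.77. AT5G47330, AT5G55970, AT2G39110, AT3G28270 and AT3G45730 were lower than HCT on 2 arrays. AT1G19540, AT2G47120, AT4G39230, AT1G75280 and AT3G11180 were lower on 1, so their order against HCT changed with the line. The 10 genes of lowest limma p, all lower in the mutant, were AT1G17960, TBL33, AT2G03200, AT1G08340, AT1G72200, AT4G26580, AT2G39110, iqd21, AT5G35740 and AT1G75280.

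The genes most like HCT were taken by the root mean square difference of their log2 ratios over the 3 arrays. ATG8H (AT3G06420), an autophagy ATG8 gene, was nearest, at 0.131, with ratios of -2.71, -2.21 and -2.26. AT5G54240 was next, at 0.135, with -2.36, -2.13 and -2.48. After these came AT3G45730, AT5G35740, AT1G72220, AT1G75280, AT1G79620, AT2G42760, AT3G03150 and OCT5 (AT1G79410), an organic cation/carnitine transporter gene. OCT5 was the tenth, at 0.277, with ratios of -2.29, -2.10 and -2.05. A gene this close to HCT is low on every array by construction, and all 10 were called lower by limma. The same 10 were nearest after scaling of the arrays. A likeness over 3 arrays of a single comparison says that the ratios were of similar size in each line and no more.

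The other genes listed for monolignol synthesis could be followed only in small part. Being listed does not show that a gene acts in stem lignin, which was not tested here. Of 25 genes on the list, 3 had a spot with 1 listed gene. HCT itself was called lower, none was called higher and the other 2 were not called. Over all genes tested, 2.6% were called lower and 0.789% higher. CYP84A4 (AT5G04330), a cytochrome P450 of the family that includes ferulate 5-hydroxylase, measured -1.62, -0.78 and -1.10, with a mean of -1.17 ± 0.42 (SD, n = 3 lines; limma adjusted p = 0.0593). It passed with scaled arrays (adjusted p = 0.0438), without values of exactly 0 (0.0477) and without line 1 (0.0376). All 3 lines were below 0, but their spread was wider than that of HCT. CCR2 (AT1G80820), a cinnamoyl-CoA reductase gene, measured -0.18, 0.36 and -0.24, with a mean of -0.02 ± 0.33 (limma adjusted p = 0.950). Its lines fell on both sides of 0. HCT was lower than CYP84A4 by 0.94, 1.45 and 1.32 on the log2 scale in lines 1, 2 and 3, and lower than CCR2 by 2.38, 2.59 and 2.18. Each of these differences had an exact permutation p of 0.25, the smallest possible. The genes for phenylalanine ammonia-lyase, cinnamate 4-hydroxylase, 4-coumarate-CoA ligase, CYP98A3, caffeoyl shikimate esterase and the other listed steps were not analysed here.

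The shikimate pathway makes the acyl acceptor of HCT. Of 19 genes listed for shikimate and phenylalanine synthesis, 3 were measured, of which 2 were called lower and none higher, where 2.6% of all genes tested were called lower and 0.789% higher. Their median log2 ratio was -1.43, against 0.01 over all genes. The gene table gives these 3 only by locus code, and the steps named here are those for which they were listed. AT2G45300, listed for EPSP synthase, measured -1.35, -1.49 and -1.45, with a mean of -1.43 ± 0.07 (SD, n = 3 lines; limma adjusted p = 0.0126). AT5G66120, listed for 3-dehydroquinate synthase, measured -0.88, -0.70 and -0.75, with a mean of -0.78 ± 0.09 (limma adjusted p = 0.0406). Both had 3 tightly grouped lines, less far from 0 than HCT in each of them.

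AT1G22410, listed for DAHP synthase at the entry of the pathway, measured -2.67, -1.44 and -1.58. Its mean of -1.89 ± 0.67 did not pass (limma adjusted p = 0.0539), and line 1 stood apart from the other lines. Without line 1 its limma adjusted p was 0.0191, at a mean of -1.51. It also passed with the arrays centred (adjusted p = 0.0485), scaled (0.0360) or without values of exactly 0 (0.0433). HCT was lower than AT1G22410 in lines 2 and 3, by 0.79 and 0.84, and 0.11 higher in line 1 (exact permutation p = 0.5). Against AT2G45300, HCT was lower by 1.21, 0.73 and 0.98 in lines 1, 2 and 3.

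**Figure D3:**
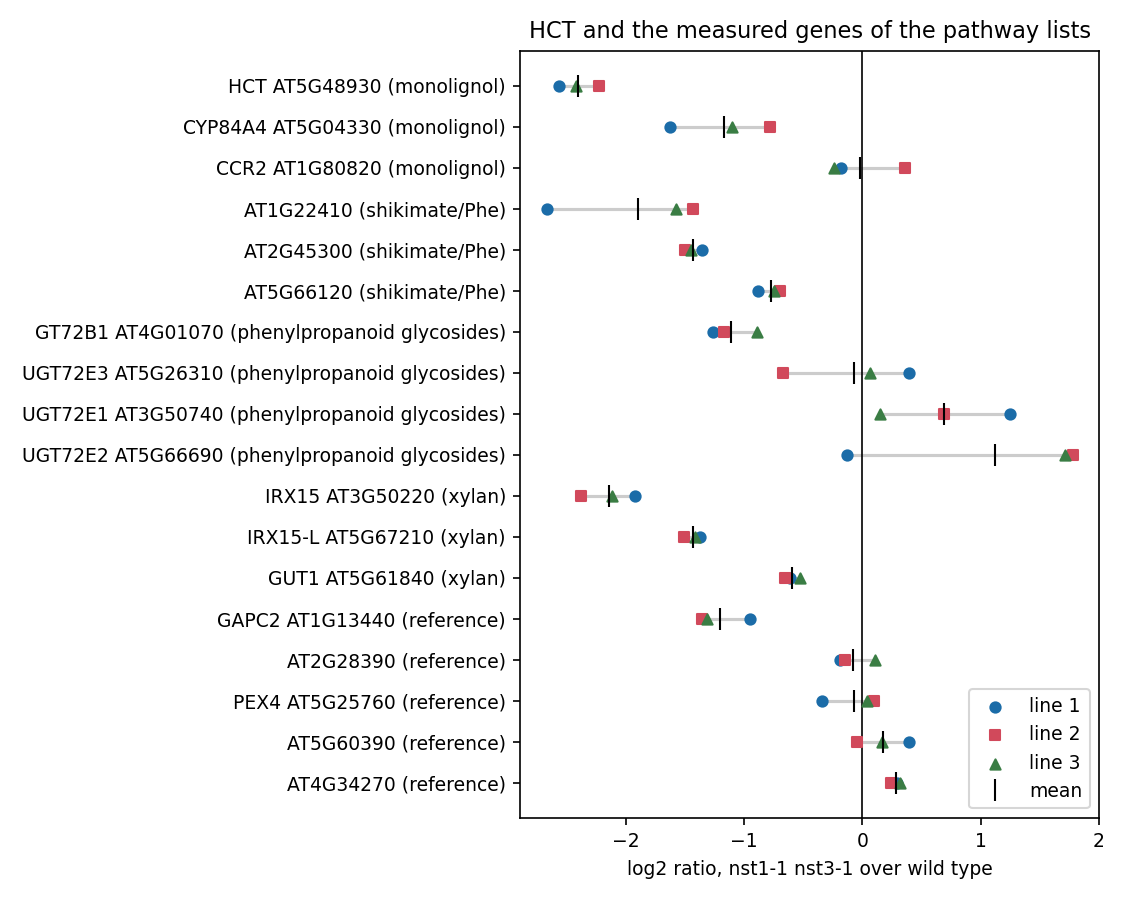
Log2 ratio, mutant over wild type, in each line for HCT and the measured genes of the monolignol, shikimate and phenylalanine, phenylpropanoid glycoside, xylan and reference lists; the black tick is the mean of the 3 lines. HCT has the lowest mean, -2.40, followed by IRX15 at -2.14 and AT1G22410 at -1.89.

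Glucosyltransferases that act on monolignols and related phenolics gave 1 call. Of 12 genes listed for phenylpropanoid esters and glycosides, 4 were measured, of which 1 was called lower and none higher, against 2.6% and 0.789% of all genes tested. GT72B1 (AT4G01070), also named UGT72B1, a glucosyltransferase of phenolic substrates, measured -1.26, -1.17 and -0.89, with a mean of -1.11 ± 0.19 (SD, n = 3 lines; limma adjusted p = 0.0359). The other 3, UGT72E1, UGT72E2 and UGT72E3, encode glucosyltransferases of monolignols and their aldehydes, and none was called. UGT72E2 measured -0.13, 1.78 and 1.71, UGT72E1 1.25, 0.69 and 0.15, and UGT72E3 0.39, -0.67 and 0.07. Only for UGT72E1 were all 3 lines on 1 side of 0.

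Xylan is the other main polymer that secondary walls lay down beside cellulose and lignin, and its measured genes were all called lower. They were 3 of 21 listed genes, where 2.6% of all genes tested were called lower. IRX15 (AT3G50220), needed for normal xylan length, measured -1.92, -2.38 and -2.12. HCT was lower than IRX15 in lines 1 and 3 and higher in line 2, with a mean difference of -0.26 ± 0.40 (SD, n = 3 lines; exact permutation p = 0.5). The lines of both genes overlapped. IRX15-L (AT5G67210), its homologue, measured -1.37, -1.51 and -1.42, and HCT was lower than it in every line, by 0.97 ± 0.24 on average. GUT1 (AT5G61840), a glucuronoxylan synthesis gene also known as IRX10-L, measured -0.61, -0.65 and -0.53, and its call was lost with a robust variance prior (limma adjusted p = 0.0508). Listed genes of secondary wall cellulose and the NAC and MYB regulators of lignin were not analysed here.

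Within the BAHD family, HCT was the 1 gene called in either direction. Of 60 listed family genes, 34 were measured, and of the 33 besides HCT none was called by limma. Over all genes tested 2.6% were called lower and 0.789% higher, so the count is near the background and nothing about the family is read from it. The mean log2 ratio of 30 of these 33 lay within 1 unit of 0, and their median was -0.05. HCT had the lowest ratio of the family on the arrays of lines 1 and 3. On the array of line 2 AT5G16410 was lower, at -3.19. AT5G16410 measured -1.45 and -1.93 in lines 1 and 3, with a mean of -2.19 ± 0.90 (SD, n = 3 lines; limma adjusted p = 0.0631, and 0.0416 without line 1). Its mean was close to that of HCT, but its spread was larger and the lines of the pair overlapped (exact permutation p = 0.75 for the difference). Next lowest was AT3G62160, at -1.31, -0.33 and -0.45.

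At the other end of the family stood the acyltransferases listed for anthocyanins, which draw on p-coumaroyl-CoA or malonyl-CoA. AT1G03940 measured 1.64, 4.32 and 4.75, and AT5MAT (AT3G29590) measured 0.31, 2.32 and 2.07, neither called by limma (adjusted p = 0.0738 and 0.137). Without line 1 both passed, at means of 4.53 and 2.20 (limma adjusted p = 0.0175 and 0.0178). Both had all lines above 0 and a lower value in line 1 than in the others. AT4G13840, also named CER26, measured 0.56, 0.53 and -0.01. Among family members that use hydroxycinnamoyl donors as HCT does, SHT (AT2G19070), spermidine hydroxycinnamoyl transferase, measured -0.66, 0.23 and 0.51. FACT (AT5G63560), fatty alcohol:caffeoyl-CoA caffeoyl transferase, measured -0.32, -0.27 and 0.01. Both changed sign between lines, and neither was called.

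**Figure D4:**
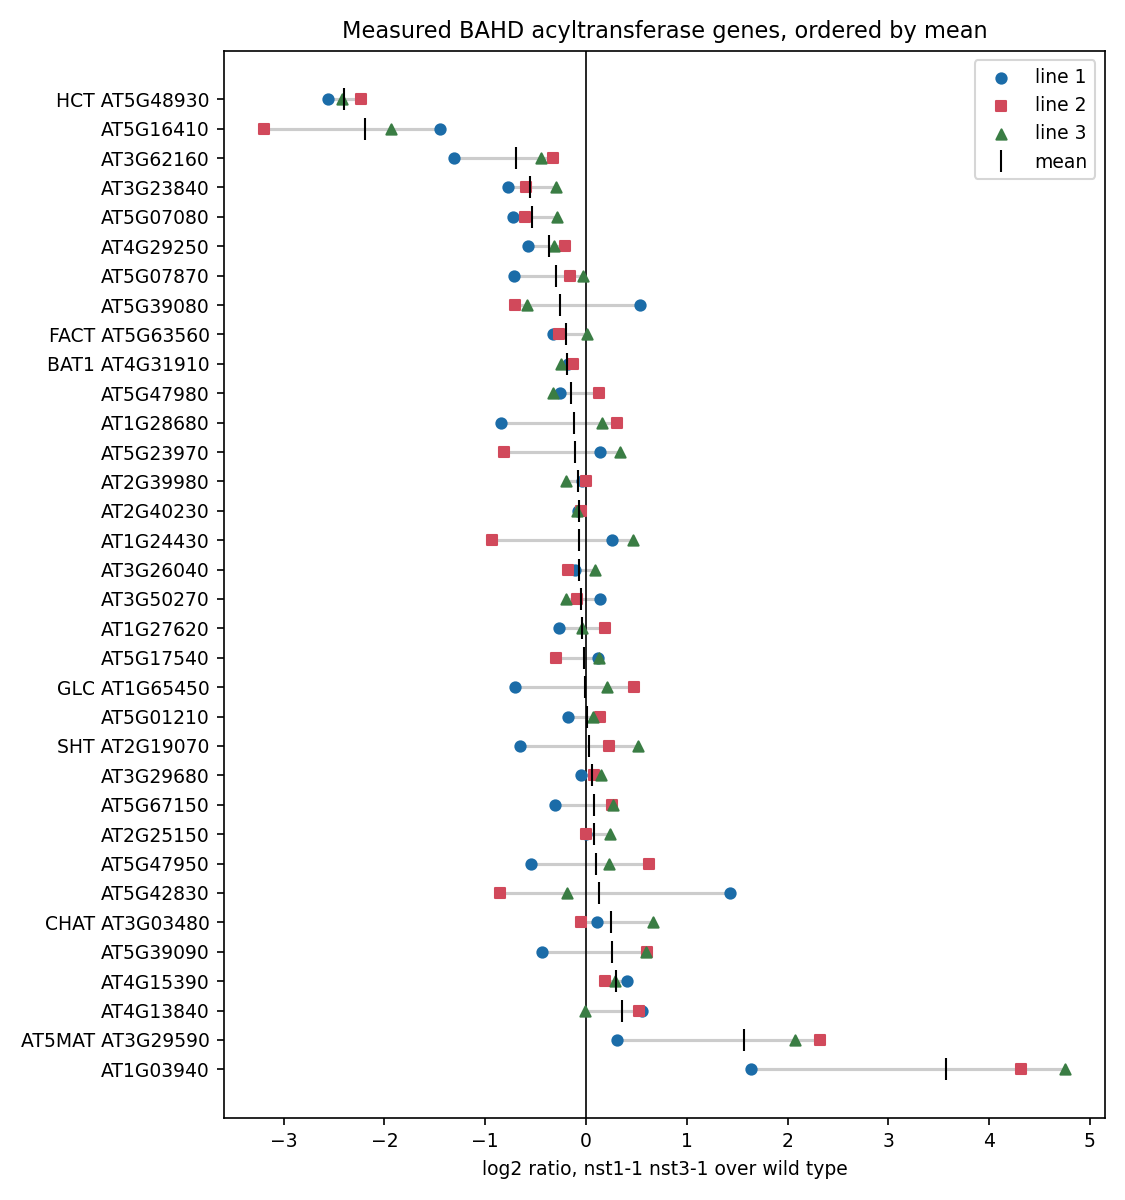
Log2 ratio, mutant over wild type, in each line for the 34 measured BAHD genes, ordered by their mean (black tick), lowest at the top. HCT, at the top, has a mean of -2.40, and 30 of the other 33 means lie within 1 unit of 0.

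Flavonoid synthesis uses the same p-coumaroyl-CoA as HCT, and its 7 measured genes of 17 listed gave no call, where 2.6% of all genes tested were called lower and 0.789% higher. DFR (AT5G42800), dihydroflavonol reductase, measured 2.73, 5.35 and 5.58 (limma adjusted p = 0.0511). UF3GT (AT5G54060), an anthocyanin glycosyltransferase, measured 1.81, 3.92 and 4.05 (limma adjusted p = 0.0580). Counted from the lowest mean ratio, DFR, AT1G03940 and UF3GT of this list held places 9253, 9252 and 9251 among all 9253 genes. DFR passed with centred arrays (limma adjusted p = 0.0470), without values of exactly 0 (0.0410) and without line 1 (0.0175), and UF3GT in the last of these settings (0.0175) and without values of exactly 0 (0.0454). The lowest means of that list were those of UGT78D2, AT4G14090 and UGT78D1, at -0.05, 0.19 and 0.39. Of 26 listed laccases and peroxidases, which oxidise monolignols in the wall, 7 were measured, with none called lower and, against the same 0.789% of all genes, AT2G22420 called higher at 0.68 ± 0.10 (SD, n = 3 lines; limma adjusted p = 0.0458). The lowest of them were AT5G51890, PRX52 and AT5G01050, with means of -1.31, -0.35 and -0.32. AT5G64120, AT5G66390 and AT2G41480 were also listed as peroxidases. They had means of 0.98, 0.64 and 0.58, above 0 on every array, and were not called, although AT5G64120 passed with scaled arrays (limma adjusted p = 0.0410), as did AT5G51890 (0.0416).

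The genes measured beside HCT on chromosome 5 had ratios much nearer to 0. In the order of the gene table, the nearest measured genes on the lower-numbered side were LPA66 (AT5G48910), AT5G48900 and AT5G48830, with mean log2 ratios of -0.16, -0.39 and -0.09. On the other side were AT5G48940, AT5G48960 and AT5G48970, at -0.15, 0.23 and 0.10. None of the 6 was called by limma. As 2.6% of all genes tested were called lower and 0.789% higher, nothing about the neighbours is read from this count. LPA66, a gene of photosystem II accumulation, lies 2 places from HCT in the table and measured -0.40, -0.06 and -0.01. AT5G48940, the next gene after HCT, measured -0.43, -0.09 and 0.06.

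Of 5 measured reference genes, GAPC2 (AT1G13440), a cytosolic glyceraldehyde-3-phosphate dehydrogenase gene, fell by 1.21 ± 0.22 on the log2 scale (SD, n = 3 lines; limma adjusted p = 0.0359). HCT was lower than it in every line, as GAPC2 measured -0.95, -1.36 and -1.32. The others, AT4G34270, AT5G60390, AT2G28390 and PEX4 (AT5G25760), had means of 0.29, 0.17, -0.08 and -0.07 and were not called. Markers of other stem tissues were few. Of 10 listed green cortex genes 3 were measured, LHCB4.1, LHCB4.2 and LHCB4.3, at -0.86, -0.63 and -0.75, of which LHCB4.3 was called lower. LHCB4.2 measured 0.10, -0.94 and -1.05 in lines 1, 2 and 3, while LHCB4.1 and LHCB4.3 were below 0 in every line. For these counts and that of the reference genes, the shares over all genes tested were 2.6% called lower and 0.789% higher. Phloem, cambium and epidermis had 1 measured gene each, SWEET11, CLE41 and WSD1, at 0.64, 0.01 and -0.03, none of them called, and none of 10 listed vessel and fibre markers was measured. The part of tissue makeup in the HCT ratio was not tested.

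The call of HCT was lost when line 2 or line 3 was left out, while its ratio moved by under its SD over lines. HCT measured -2.49 without line 2 (limma adjusted p = 0.166) and -2.40 without line 3 (adjusted p = 0.0684), and in these fits no gene passed. With a dye term it measured -2.36 (adjusted p = 0.0989), again with no gene past the threshold. Without line 1 it measured -2.33 (adjusted p = 0.0178).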

How the data were processed

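The deposited values were log ratios of the 2 dyes, 1 per spot and array, for 22236 spots, taken as log10 ratios with Cy5 as numerator. How the authors scanned, background-corrected and dye-normalized the arrays is not given in the sources used here. Dyes were taken from the labels, and line 2 was turned because its label gives the mutant in Cy3. Before turning, its deposited column correlated at -0.488 and -0.783 with those of lines 1 and 3 over spots. Spots were named through the platform annotation and Entrez identifiers against the TAIR10.1 gene table: 9335 had 1 gene (9317 matched), 40 several and 12861 none listed. Spots of 1 gene were averaged (79 genes). Differing spots of such genes lay a median of 0.236, 0.229 and 0.219 log2 units apart in lines 1, 2 and 3; HCT had 1 spot. No intensities were used here, so signal over background was not judged, and having only 3 arrays limits the precision.

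The test was limma 3.58.1 (R 4.3.3; lmFit, eBayes) against 0 over all genes, tested on simulated data, with a threshold of 0.05 on the Benjamini-Hochberg adjusted p. The series text calls the lines independent, but nothing says that their plants were grown separately. The p-values therefore measure the spread between these samples. Wild type has no array of its own. The members and the 15 lists were chosen with earlier results of these data known. Genes were named by a written rule: HCT, measured genes of the smaller lists, extremes of the larger ones, the 10 nearest genes, the 10 of lowest p, those below HCT and 3 neighbours on each side. LHCB4.1, LHCB4.2, LHCB4.3, SWEET11, CLE41 and WSD1 are the measured tissue markers, and SHT, FACT and AT2G41480 were named after their values were seen. Alternatives were centring, scaling, a dye term, each line left out, a robust prior, an unmoderated test, single spots, zeros left out, all spots, a log2 reading and line 2 unturned.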

Additional observations from a re-analysis of the deposited data

Results flagged for a closer look

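Spots with no gene name were outside the comparison, and many of them were as low as HCT. Leaving out 230 that follow the dye (deposited ratio beyond 0.25 with 1 sign on every array), 44 of 12631 lay at or below HCT on all 3 arrays, or 0.348%, against 13 of the 9335 spots with 1 listed gene, or 0.139%. At least 4-fold lower on every array were 70 of these spots (0.554%), against 30 of the 9335 (0.321%). A further measure is closeness: 12 of these 12631 spots were at least as near to HCT as the last of its 10 nearest genes. Those 10 came from 9253 genes, so by closeness the share of such spots was not larger. Whether these spots stand for separate genes was not tested. Spots that follow the dye were not left out of the 9335 in the same way.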

How the results depend on the processing

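HCT was lower in every setting tried; as its 3 lines share a sign, this follows by construction except for centring and with line 2 unturned. Its adjusted p passed in 8 of the 13 settings besides the reported one, and these 8 are not independent checks. A log2 reading keeps the same p by construction. Fitting single spots or leaving out values of exactly 0 does not alter the values of HCT itself. With a dye term (1 residual degree of freedom left), HCT was at -2.36 (adjusted p = 0.0989), and with the unmoderated test at -2.40 (adjusted p = 0.166). With line 2 unturned, where opposed signs cancel by construction, it was at -0.92 (adjusted p = 1). Without 1 line it ranged between -2.49 and -2.33, and its place by mean ratio between 19th and 36th lowest (19 without line 2, 36 without line 1), against 24 with all lines. When all spots were fitted and ranked, its place was 87. Genes called lower and higher, 241 and 73, were 0 and 0 with the dye term and with line 2 unturned, 1 and 0 with the unmoderated test, and 66 and 3 with all spots fitted. Scaling gave 175 higher and leaving out values of exactly 0 gave 140. Without 1 line the ranges were 0 to 583 lower and 0 to 574 higher. At an unadjusted p under 0.05 the reported limma fit had 2386 genes. The pathway genes called lower besides HCT, 6 in all, were 0 with the dye term, the unmoderated test or line 2 unturned, 3 with all spots fitted, and 0 to 10 without 1 line. The causes were not tested unless stated.

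Genes that were not called changed sign in some settings. CCR2 (AT1G80820) was at 0.0751 with the dye term and between -0.21 and 0.0904 without 1 line. UGT78D2 (AT5G17050) was at 0.0038 with scaling, at 0.0689 with the dye term and between -0.29 and 0.41 without 1 line. Without 1 line, AT5G01050 was between -0.65 and 0.0686, PEX4 (AT5G25760) between -0.15 and 0.0701, and UGT72E3 (AT5G26310) between -0.30 and 0.23. With line 2 unturned, UGT72E3 was at 0.38, UGT78D1 (AT1G30530) at -0.0865, AT2G28390 at 0.0227, AT5G48830 at 0.0504 and UGT72E2 (AT5G66690) at -0.0675. A single spot of AT4G14090, which has several, was at -0.25 when spots were not averaged and when all spots were fitted. Each array pairs 1 mutant line with wild type, and limma tested these paired ratios against 0. No further pairing was possible, as no second group carries the line numbers.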
